A study of Mus musculus with 84 samples.

Results

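Mouse vagal sensory neurons, sequenced 1 cell at a time, that carry Cckar, the gene of the cholecystokinin A receptor, were compared with neurons of the same kind that lack it. A neuron was taken when its library held 5000000 or more counts, when 5000 or more genes reached 10 CPM (the count of a gene divided by the neuron's total and multiplied by 1000000), and when Prdm12, a transcription factor gene of jugular ganglion neurons, stayed below 10 CPM. Of 84 neurons in the series, 32 met these conditions. Cckar was at 10 CPM or more in 18 of them, here called Cckar neurons, and below 10 CPM in the other 14, here called Cckar-negative neurons. The Cckar level itself therefore made the groups, and every value below describes these neurons and carries no test.

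All neurons came from C57BL/6 mice and had taken up 2% DiI, a lipophilic dye that travels back along axons, from the airways. Each cell was collected on its own by its tracer signal, its mRNA was amplified, and the library was read at 76 bases. No label gives an animal, an age or a sex for any neuron, and both groups have the same strain and tracer. A gene is called detected in a neuron at 10 CPM or more.

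Cholecystokinin is a peptide of gut endocrine cells and of neurons. Its A receptor couples through Gq to phospholipase C and calcium release, and in the nodose ganglion it is best known from afferents of the upper gut, where it takes part in satiety. Vagal sensory neurons of the airways include myelinated mechanosensors, which use Piezo2 and fast sodium channels, and unmyelinated chemosensors, which use Trpv1, Trpa1, P2X and 5-HT3 receptors.

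Cckar is a gene of chromosome 5 (53697776 to 53707705, minus strand, GRCm38). Its level was 16.9 to 289 CPM in Cckar neurons (median 82.4 CPM) and 0 to 8.88 CPM in Cckar-negative neurons (median 0.658 CPM). The Cckar neuron nearest to the limit of 10 CPM had 16.9 CPM and the next 24.8 CPM, while the Cckar-negative neurons nearest to it had 8.88 and 3.33 CPM. Among Cckar-negative neurons, 2 had no Cckar count, 9 lay below 1 CPM and 5 lay between 1 and 10 CPM. Cckar neurons made up 56.25% of the neurons compared (exact 95% binomial interval 37.7% to 73.6%, which covers counting error only). On the other limits, the fewest genes in a neuron compared were 5231 and the most in a neuron outside 4870, and the highest Prdm12 level compared was 0.259 CPM against 22.04 CPM in the lowest Prdm12 neuron.

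**Figure D1:**
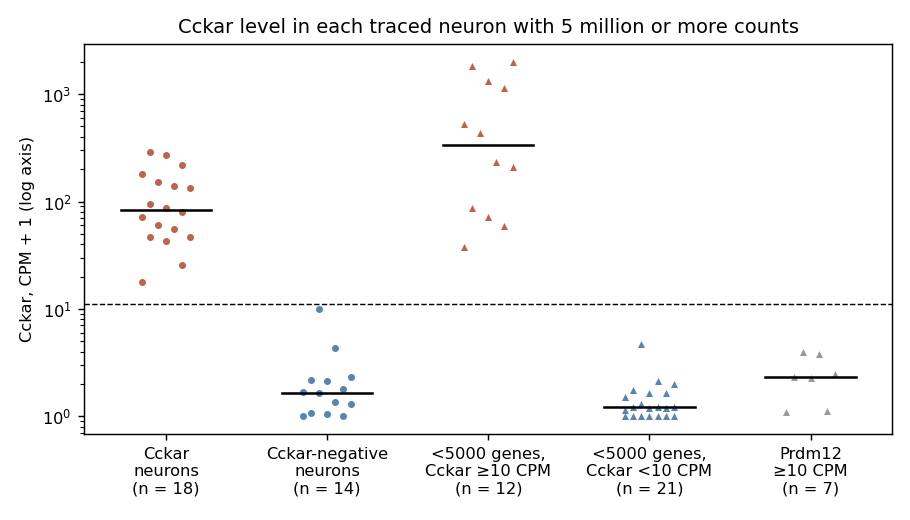
Cckar level (CPM + 1, log axis) in each neuron with 5000000 or more counts, with the median as a bar and 10 CPM as a dashed line. Circles are the 18 Cckar neurons (16.9 to 289 CPM) and the 14 Cckar-negative neurons (0 to 8.88 CPM) compared here; triangles are the neurons outside the comparison, where Cckar reached 2005 CPM in a neuron of fewer than 5000 detected genes.

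Depth was similar in both groups, and some other features were not. Total counts ran from 10274511 to 20668832 in Cckar neurons (median 15038290) and from 7667941 to 18231716 in Cckar-negative neurons (median 13272180), so that 10 CPM was at least 76.7 counts. Detected genes numbered 5885 to 8870 in Cckar neurons (median 7996) and 5231 to 8411 in Cckar-negative neurons (median 7764). The numbers in the neurons' names form 3 blocks with wide gaps between them, which the labels do not call batches. Cckar and Cckar-negative neurons numbered 7 and 2 in block 1, 4 and 0 in block 2, and 7 and 12 in block 3. Ddx3y, a gene of the Y chromosome, was detected in 8 of 18 Cckar neurons and 12 of 14 Cckar-negative neurons, among them every neuron of block 3. Xist, the RNA of the inactive X chromosome, was detected in 6 of 18 Cckar neurons and 0 of 14 Cckar-negative neurons. The part of block and of sex-linked expression in the results below was not tested. Values within block 3, where Ddx3y was detected in all neurons, are given for some of the genes only.

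The label of nodose-type neurons rests on the lack of Prdm12 and was only in part borne out by other markers. Among genes listed as nodose markers, Ntrk2, the gene of the BDNF receptor, was detected in 18 of 18 Cckar neurons and 14 of 14 Cckar-negative neurons, and Hoxb5 in 17 of 18 and 14 of 14. Phox2a was detected in 2 of 18 Cckar neurons and 0 of 14 Cckar-negative neurons, and Hoxa5 in 1 of 18 and 0 of 14. Among genes listed as jugular markers, Wfdc2, Trpm8 and Mrgprd were detected in no neuron of either group. Runx1 was detected in 18 of 18 Cckar neurons and 13 of 14 Cckar-negative neurons, Tac1 in 14 of 18 and 7 of 14, and Prrxl1 in 11 of 18 and 4 of 14. The 10 pan-neuronal genes were detected in both groups, and their summed level was 7224 to 18864 CPM in Cckar neurons (median 11966 CPM) and 10120 to 21142 CPM in Cckar-negative neurons (median 16088 CPM).

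Few other genes differed between the groups by a large share of neurons. Of 10508 genes at 10 CPM or more in at least 5 of the 32 neurons, Cckar itself left out, the share of neurons with the gene was at least 40 percentage points higher in Cckar neurons for 82 (0.78%) and at least 40 points lower for 25 (0.238%), which is 107 genes (1.02%) in either direction. By a second rule of size, a log2 ratio of the median CPM values of 1 or more with 10 CPM added to each median, 264 genes (2.51%) were higher in Cckar neurons and 114 (1.08%) lower. Both rules together held for 36 genes (0.343%) on the higher side and 8 (0.0761%) on the lower side. No gene other than Cckar separated the groups without overlap of its CPM values. The median difference in share over all 10508 genes was 0 points and the median log2 ratio 0.05.

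**Figure D2:**
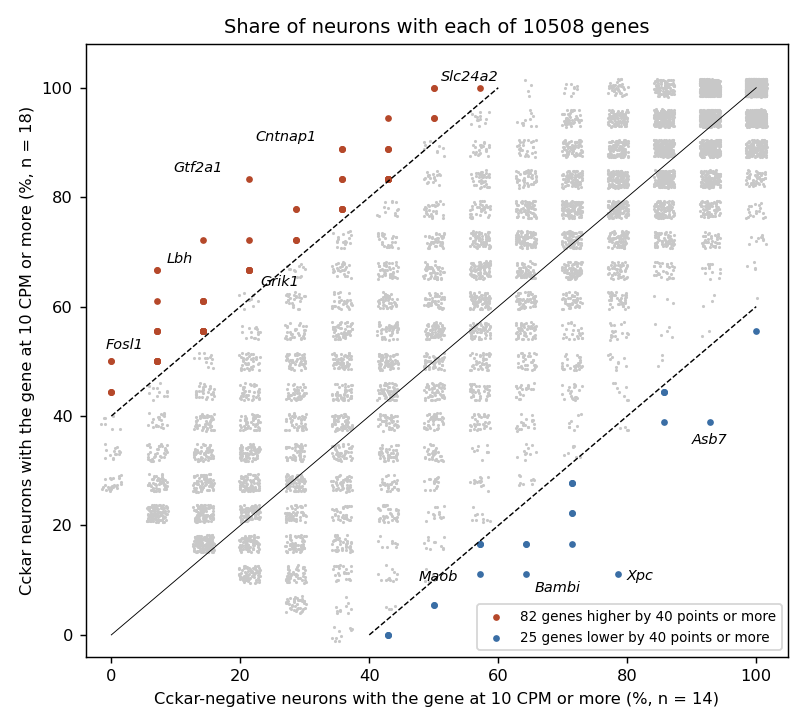
Share of the 18 Cckar neurons (y axis, %) and of the 14 Cckar-negative neurons (x axis, %) with each of 10508 genes at 10 CPM or more; grey points are spread by up to 1.6 points to show ties, and dashed lines mark differences of 40 points. Most genes lie near the diagonal, with 82 genes past the upper line and 25 past the lower.

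Slc24a2, a sodium, calcium and potassium exchanger gene, lies on chromosome 4 (86983124 to 87230477, minus strand). Its level was 27.7 to 771 CPM in Cckar neurons (median 142 CPM) and 0 to 279 CPM in Cckar-negative neurons (median 36.4 CPM). It was detected in 18 of 18 Cckar neurons and 7 of 14 Cckar-negative neurons, a difference of 50 points (95% interval 17.3 to 76.96 points, built from the exact intervals of the shares). The groups overlapped, because 7 Cckar-negative neurons lay within the range of the Cckar neurons. Within block 3 Slc24a2 was detected in 7 of 7 Cckar neurons and 5 of 12 Cckar-negative neurons. Without block 3 the difference was 0 points, since it was detected in 11 of 11 Cckar neurons and 2 of 2 Cckar-negative neurons.

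Grik1, a kainate-type glutamate receptor subunit gene of chromosome 16 (87895900 to 88290265, minus strand), was also past 40 points. It was detected in 12 of 18 Cckar neurons and 3 of 14 Cckar-negative neurons. Its level was 0 to 144 CPM in Cckar neurons (median 19.1 CPM) and 0 to 304 CPM in Cckar-negative neurons (median 0.329 CPM). The highest single value was thus in a Cckar-negative neuron. Of 19 receptor genes for GABA, glycine and glutamate that were measured widely enough, Grik1 alone was past 40 points and 3 were higher by the ratio of medians, against 0.78% and 2.51% of all genes. Without block 3 the difference of Grik1 was 13.6 points.

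Genes of myelinated A-fibres had a larger share of members past the ratio of medians than all genes had. Of 13 such genes compared, 1 was past 40 points and 4 were higher by the ratio of medians, and none was lower by either rule. Of all genes, 0.78% and 2.51% were past these sizes on the higher side. The median log2 ratio of the list was 0.82, against 0.05 over all genes. A larger share by the ratio of medians was not particular to A-fibre genes. Of 12 unmyelinated C-fibre genes, 3 were higher by that ratio and 1 was lower, with a median log2 ratio of 0.04. Cntnap1, which encodes the paranodal axon protein Caspr, lies on chromosome 11 (101170523 to 101190724, plus strand). It was detected in 16 of 18 Cckar neurons and 5 of 14 Cckar-negative neurons. Its level was 0.235 to 124 CPM in Cckar neurons (median 32.1 CPM) and 0.0824 to 103 CPM in Cckar-negative neurons (median 6.21 CPM). Its exons overlap those of Plekhh3 on the other strand, and the counting is not stated to use strand, so the source of its reads is uncertain. Overlaps of exons also make uncertain the counts of Nefl, Sv2b, Xist, Hoxb5, Runx1, Phox2a, Plcb1, Itpr1, Prkca, Fosl1, Atxn7l1, Iqcc, Tlcd1, Lrrc75a and Cbfa2t3.

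The 3 other A-fibre genes past the ratio of medians were Cntn1, Scn8a and Nefh, of which Cntn1 and Scn8a were named after their values were seen. Cntn1, the contactin partner of Caspr, was detected in 17 of 18 Cckar neurons and 8 of 14 Cckar-negative neurons, with levels of 2.74 to 1402 CPM (median 477 CPM) in Cckar neurons and 0.0848 to 1021 CPM (median 84.4 CPM) in Cckar-negative neurons. Scn8a, the nodal sodium channel Nav1.6, had 24 to 367 CPM in Cckar neurons (median 104 CPM) and 0 to 185 CPM in Cckar-negative neurons (median 25.5 CPM), and was detected in 18 of 18 and 12 of 14. Nefh, the heavy neurofilament, was detected in every neuron of both groups, and its median was 1175 CPM in Cckar neurons and 551 CPM in Cckar-negative neurons. The groups overlapped for all of these genes. The light neurofilament gene Nefl did not follow them, with medians of 3724 CPM in Cckar neurons and 3691 CPM in Cckar-negative neurons.

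Transcripts of Schwann cells moved in the same direction as the A-fibre genes. The summed level of the 7 Schwann cell markers was 463 to 1313 CPM in Cckar neurons (median 897 CPM) and 46.2 to 929 CPM in Cckar-negative neurons (median 468 CPM). Pmp22 made up most of that sum, with medians of 663 CPM in Cckar neurons and 394 CPM in Cckar-negative neurons. Prx, Ncmap and Pllp were each detected in 1 of 18 Cckar neurons and 0 of 14 Cckar-negative neurons. The 7 satellite glia markers summed to 113 to 9782 CPM in Cckar neurons (median 956 CPM) and 38.9 to 4655 CPM in Cckar-negative neurons (median 1023 CPM). The part of these cells in the results was not tested. Cdh1, listed as an airway epithelium gene, was detected in 12 of 18 Cckar neurons and 6 of 14 Cckar-negative neurons, while Epcam, Krt8, Krt18 and Scgb1a1 were detected in no neuron of either group.

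Piezo2, the touch and stretch channel gene of chromosome 18 (63010213 to 63387183, minus strand), was just short of 40 points. It was detected in 11 of 18 Cckar neurons and 3 of 14 Cckar-negative neurons, a difference of 39.7 points (95% interval 0.876 to 67.02 points). Its level was 0 to 600 CPM in Cckar neurons (median 86.9 CPM) and 0 to 355 CPM in Cckar-negative neurons (median 0.193 CPM). In Cckar-negative neurons the values fell apart, with 3 neurons above 200 CPM and the other 11 below 1 CPM. In the Cckar neurons they were spread more evenly. Within block 3 Piezo2 was detected in 5 of 7 Cckar neurons and 1 of 12 Cckar-negative neurons. Without block 3 the direction turned, to -45.5 points, with 6 of 11 Cckar neurons and 2 of 2 Cckar-negative neurons.

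Tac1, the precursor gene of substance P on chromosome 6 (7554879 to 7565834, plus strand), was detected in 14 of 18 Cckar neurons and 7 of 14 Cckar-negative neurons. Its level was 0.0782 to 7773 CPM in Cckar neurons (median 152 CPM) and 0 to 2330 CPM in Cckar-negative neurons (median 9.66 CPM). The groups overlapped almost fully in range. In block 1 Tac1 was detected in 6 of 7 Cckar neurons and 2 of 2 Cckar-negative neurons, with medians of 37.8 and 1279 CPM, and without block 3 the difference was -18.2 points. Calca, the precursor of calcitonin gene-related peptide, was detected in 7 of 18 Cckar neurons and 1 of 14 Cckar-negative neurons, and its medians were low in both, at 2.98 and 0.680 CPM. Sv2b, a synaptic vesicle protein gene named after its values were seen, was detected in 11 of 18 Cckar neurons and 4 of 14 Cckar-negative neurons, with medians of 36.7 and 0.119 CPM.

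**Figure D3:**
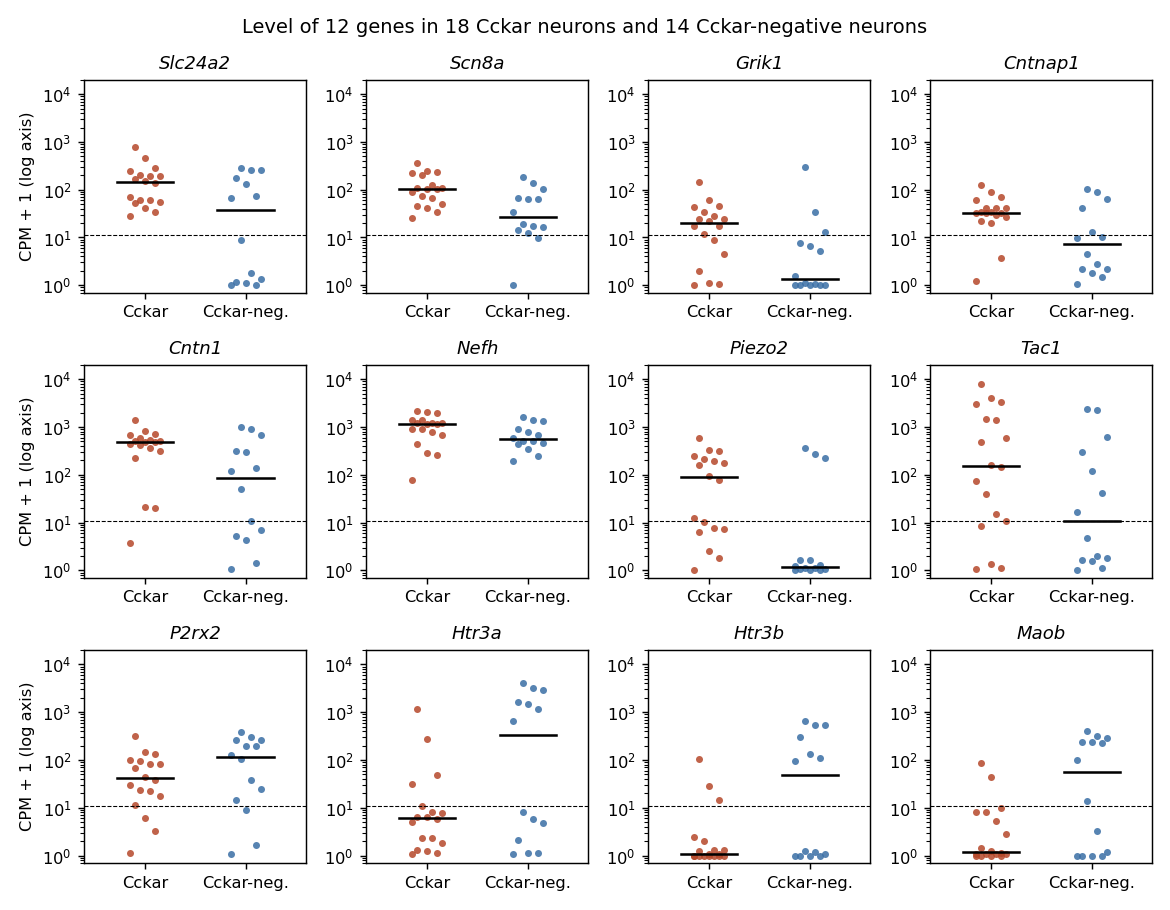
Level (CPM + 1, log axis) of 12 genes in each of 18 Cckar neurons (left) and 14 Cckar-negative neurons (right), with the median as a bar and 10 CPM as a dashed line. Slc24a2 and Scn8a were detected in all Cckar neurons. Htr3a and Htr3b were detected in the same 7 Cckar-negative neurons, Maob in these and 1 other, and Piezo2 in 3 neurons outside these 7.

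Several genes of lower level in Cckar neurons were detected mostly in 1 set of Cckar-negative neurons. Htr3a, the principal 5-HT3 serotonin receptor subunit, was detected in 4 of 18 Cckar neurons and 7 of 14 Cckar-negative neurons. Its level was 0.0786 to 1166 CPM in Cckar neurons (median 5.13 CPM) and 0.0556 to 4054 CPM in Cckar-negative neurons (median 325 CPM). The Cckar-negative neurons parted cleanly: 7 had 643 to 4054 CPM and the other 7 had 0.0556 to 7.02 CPM. All 7 neurons of the high set were in block 3. Htr3b, which encodes the second 5-HT3 subunit and lies beside Htr3a on the minus strand of chromosome 9 (Htr3a at 48899213 to 48911099, Htr3b at 48935008 to 48964990), was detected in exactly these 7 Cckar-negative neurons, at 92.3 to 656 CPM, and in 3 of 18 Cckar neurons.

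The same 7 Cckar-negative neurons carried Maob, the gene of monoamine oxidase B on chromosome X (16709282 to 16817366, minus strand). Maob had 12.8 to 397 CPM in these 7 neurons and was detected in 1 of the other 7. Over the whole groups Maob was detected in 2 of 18 Cckar neurons and 8 of 14 Cckar-negative neurons, with levels of 0 to 83.7 CPM (median 0.175 CPM) in Cckar neurons and 0 to 397 CPM (median 54.6 CPM) in Cckar-negative neurons. P2rx2, the ATP-gated channel subunit of nodose neurons, was detected in 7 of these 7 neurons at 106 to 377 CPM, and in 4 of the other 7 at up to 127 CPM. Over the whole groups P2rx2 was detected in 15 of 18 Cckar neurons (0.135 to 313 CPM, median 39.9 CPM) and 11 of 14 Cckar-negative neurons (0.0924 to 377 CPM, median 117 CPM). Cartpt, a peptide precursor gene, and Bambi, a pseudoreceptor of the TGF-beta family, were also detected in 7 of the 7. The irritant channel gene Trpa1 was detected in 4 of them and the capsaicin receptor gene Trpv1 in 5, against 1 and 2 of the other 7.

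Some genes with higher medians in Cckar neurons were detected in fewer of the 7 Cckar-negative neurons with Htr3a than of the 7 without. Piezo2 was detected in 0 of these 7 (0 of 7 allows a share of up to 42.9%) and in 3 of the 7 Cckar-negative neurons without Htr3a. Cntnap1 was detected in 1 of 7 with Htr3a and 4 of 7 without, Cntn1 in 2 and 6, Slc24a2 in 2 and 5, and Tac1 in 2 and 5. Piezo2, Tac1 and Cntnap1 were detected together in 9 of 18 Cckar neurons and 3 of 14 Cckar-negative neurons, and all 3 were missing in 1 of 18 and 7 of 14. Cntn1 and Slc24a2 were detected together in 17 of 18 Cckar neurons and 7 of 14 Cckar-negative neurons. Htr3a, Htr3b and Maob were detected together in 1 of 18 Cckar neurons and 7 of 14 Cckar-negative neurons. This split was noticed in the values of these neurons.

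**Figure D4:**
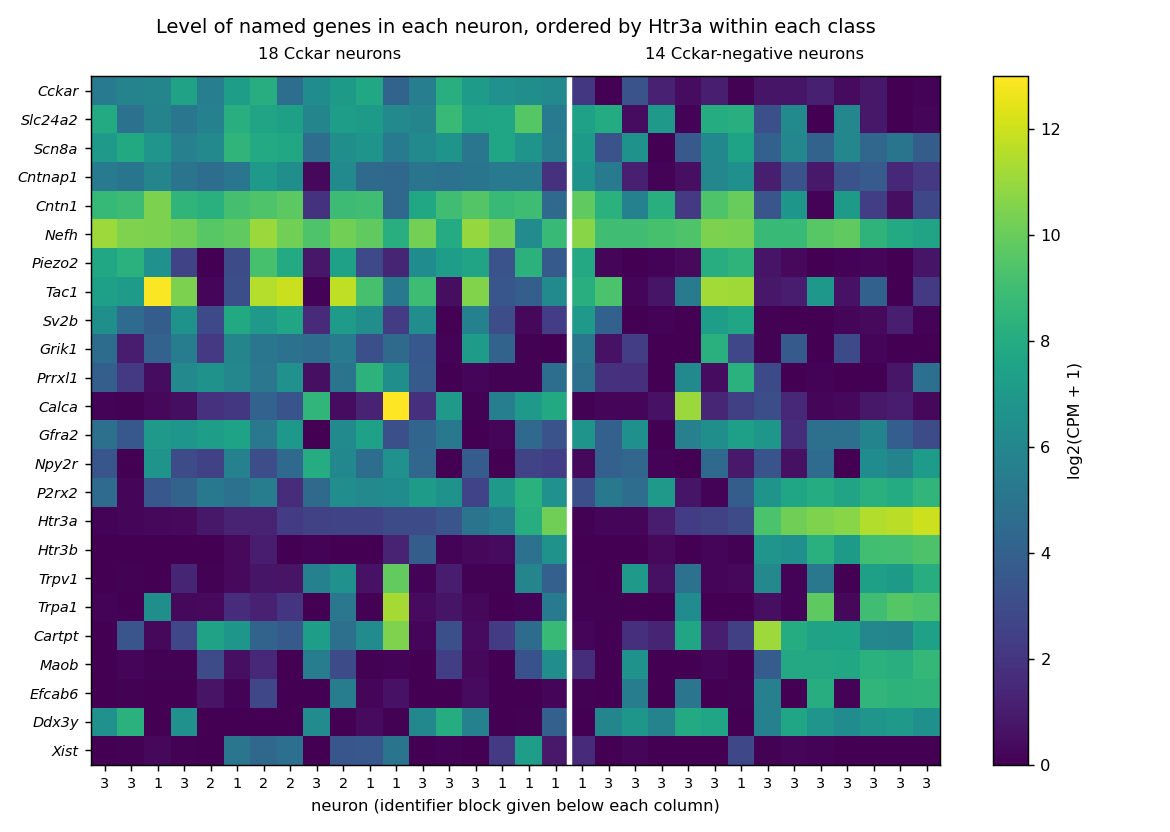
Level of 24 genes (rows, log2(CPM + 1), colour scale) in each neuron (columns), with 18 Cckar neurons at the left and 14 Cckar-negative neurons at the right, both ordered by Htr3a; numbers under the columns are identifier blocks. The 7 Cckar-negative neurons at the right edge have Htr3a, Htr3b, P2rx2, Cartpt and Maob and no Piezo2.

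With all neurons that had Htr3a at 10 CPM or more left out, 14 Cckar neurons and 7 Cckar-negative neurons remained. Grik1 then had a difference of 42.9 points, with 10 of 14 Cckar neurons and 2 of 7 Cckar-negative neurons. Cntnap1 was at 35.7 points, Slc24a2 at 28.6 points, Piezo2 at 14.3 points and Cntn1 at 7.14 points. Tac1 was detected in 10 of 14 Cckar neurons and 5 of 7 Cckar-negative neurons, a difference of 0 points, with medians of 327 and 296 CPM. Maob was detected in 1 of 14 Cckar neurons and 1 of 7 Cckar-negative neurons. All 82 genes of higher share were still higher among these 21 neurons, which are part of the main comparison, while 54.3% of all genes were. Of the 82, 54 remained past 40 points, where 604 genes in all were past that size on the higher side. Of the 25 genes of lower share, 21 were still lower, 2 were higher and 2 were equal, while 17.1% of all genes were lower. Of the 25, 6 remained past 40 points, where 43 of all 10508 genes were past that size on the lower side.

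Block 3 alone, with 7 Cckar neurons and 12 Cckar-negative neurons, had 239 genes (2.27%) past 40 points on the higher side and 309 (2.94%) on the lower side. All 82 genes of higher share were also higher there, 53 of them past 40 points, while 36.9% of all genes were higher. Of the 25 genes of lower share, 24 were lower there, 20 of them past 40 points, while 43.2% of all genes were lower. The neurons of block 3 are part of the main comparison, so these counts are not independent of it. Of the genes followed above, Cntnap1 was detected in 6 of 7 Cckar neurons and 3 of 12 Cckar-negative neurons of block 3, Tac1 in 5 of 7 and 5 of 12, Htr3a in 1 of 7 and 7 of 12, and Maob in 1 of 7 and 8 of 12. Without block 3 only 2 Cckar-negative neurons are left, and the difference of Cntnap1 is then -9.09 points. The 11 Cckar neurons and 2 Cckar-negative neurons outside block 3 are also part of the main comparison, so the next counts are not independent of it either. Of the 82 genes of higher share, 53 were higher without block 3, 21 were lower and 8 were equal, while 20.9% of all genes were higher. Of the 25 genes of lower share, 17 were lower without block 3, 6 were higher and 2 were equal, while 41.9% of all genes were lower. Htr3a and Htr3b turned direction there, at 27.3 and 18.2 points, with 3 and 2 of 11 Cckar neurons and 0 of 2 Cckar-negative neurons.

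The medians of Tac1 and Htr3b differed in opposite directions over the 32 neurons, though neither gene was past 40 points and both turned direction without block 3. The letters around their start sites are shown for reference.
Tac1, chr6:7554811-7555110, plus strand: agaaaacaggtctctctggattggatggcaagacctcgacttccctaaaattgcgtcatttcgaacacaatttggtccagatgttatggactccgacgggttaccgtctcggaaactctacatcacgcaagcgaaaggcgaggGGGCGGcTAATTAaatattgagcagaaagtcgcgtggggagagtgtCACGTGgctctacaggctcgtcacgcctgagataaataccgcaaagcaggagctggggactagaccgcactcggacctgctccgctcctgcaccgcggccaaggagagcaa
Htr3b, chr9:48964941-48965240, minus strand: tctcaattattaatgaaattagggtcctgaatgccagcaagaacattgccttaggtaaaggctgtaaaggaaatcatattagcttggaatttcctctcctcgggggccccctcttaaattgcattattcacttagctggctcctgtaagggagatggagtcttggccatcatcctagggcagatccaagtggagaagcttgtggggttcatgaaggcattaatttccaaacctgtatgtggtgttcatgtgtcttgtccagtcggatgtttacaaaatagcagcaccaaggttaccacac
Each run holds 250 bases before and 50 bases after the start of the gene in RefSeq (GRCm38.p6), 5′ to 3′ on the gene's strand, and capitals mark matches, on either strand, to the homeodomain core TAATTA, the E-box CACGTG and the GC box GGGCGG, which do not overlap each other. The Tac1 run holds 1 match to each and the Htr3b run holds none of them. The homeodomain core was found in 5.29% of the 32851 promoters of that table, the E-box in 7.15% and the GC box in 35.7%. A match describes the letters only.

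The 15 genes outside the lists with the largest differences on the higher side were mostly of low level, so that their shares turn on values close to 10 CPM. Gtf2a1, a subunit gene of the general transcription factor TFIIA, was detected in 15 of 18 Cckar neurons and 3 of 14 Cckar-negative neurons, the largest difference at 61.9 points. Its level was 4.76 to 158 CPM in Cckar neurons (median 19.2 CPM) and 0.0848 to 17.1 CPM in Cckar-negative neurons (median 7.09 CPM). Lbh and Atxn7l1 were each detected in 12 of 18 Cckar neurons and 1 of 14 Cckar-negative neurons. Fosl1, which encodes the AP-1 factor Fra-1, was detected in 9 of 18 Cckar neurons and 0 of 14 Cckar-negative neurons (0 of 14 allows a share of up to 21.4%). Ddx21, an RNA helicase gene, was detected in 17 of 18 Cckar neurons and 6 of 14 Cckar-negative neurons, with medians of 26.7 and 9.54 CPM. Also among the 15 were Tnip2, Sdsl, Ahcy, Tcof1, Por, Tnfrsf12a, Rassf4 and Zbtb7c, besides Slc24a2, with differences from 48.4 to 57.9 points. Myh10, a nonmuscle myosin heavy chain gene named after its values were seen, was past both rules, detected in 15 of 18 Cckar neurons and 6 of 14 Cckar-negative neurons, with medians of 60.7 and 2.59 CPM.

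On the lower side, Xpc, a DNA damage recognition gene, had the largest difference. It was detected in 2 of 18 Cckar neurons and 11 of 14 Cckar-negative neurons, a difference of -67.5 points. Its level was 0 to 33.6 CPM in Cckar neurons (median 3.75 CPM) and 0 to 48.03 CPM in Cckar-negative neurons (median 16.7 CPM), so both groups lay close to the detection limit. Unlike Maob, Xpc was detected alike in Cckar-negative neurons with Htr3a (6 of 7) and without (5 of 7). Iqcc was detected in 3 of 18 Cckar neurons and 10 of 14 Cckar-negative neurons, and Asb7 in 7 of 18 and 13 of 14. Efcab6, detected in 1 of 18 Cckar neurons and 7 of 14 Cckar-negative neurons, reached 381 CPM, and Dpyd, a pyrimidine breakdown enzyme gene, was detected in 3 of 18 and 9 of 14. Diaph3 was detected in 5 of 18 Cckar neurons and 10 of 14 Cckar-negative neurons. Zfp81, Stk35, Tlcd1, Baz2a, Lrrc75a, Rnaseh1 and Ttc27 completed the 15, with Maob and Bambi. Ddx3y, set out above as a marker of sex, was also among the 25 genes, at -41.3 points.

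Of 15 genes of the receptor's own pathway, none was past 40 points in either direction, against 1.02% of all genes, so nothing is read from that count. By the ratio of medians 1 was higher and 2 were lower, against 2.51% and 1.08% of all genes, and the list's median log2 ratio was -0.06. Gnaq, the Gq alpha subunit that the receptor couples to, was detected in every neuron, at 207 to 1261 CPM in Cckar neurons (median 550 CPM) and 313 to 1173 CPM in Cckar-negative neurons (median 664 CPM). The phospholipase genes Plcb1 and Plcb4 were detected in 16 of 18 Cckar neurons each, against 10 and 14 of 14 Cckar-negative neurons, and Plcb2 in none of either group. Itpr1, a calcium release channel gene, was detected in 15 of 18 Cckar neurons and 9 of 14 Cckar-negative neurons. The medians of the protein kinase C genes Prkcb and Prkca went in opposite directions. That of Prkcb was 420 CPM in Cckar neurons and 191 CPM in Cckar-negative neurons. That of Prkca was 42.3 CPM in Cckar neurons and 275 CPM in Cckar-negative neurons. By share both were lower in Cckar neurons, with Prkcb in 14 of 18 and 13 of 14 and Prkca in 15 of 18 and 13 of 14. In block 1 the median of Prkcb was 119 CPM in 7 Cckar neurons and 586 CPM in 2 Cckar-negative neurons. Rgs4, a regulator that shortens Gq signalling, had a median of 750 CPM in Cckar neurons and 1516 CPM in Cckar-negative neurons. With all neurons that had Htr3a at 10 CPM or more left out, the medians of Prkca and Rgs4 turned direction. Prkca then had 146 CPM in Cckar neurons and 68.2 CPM in Cckar-negative neurons, and Rgs4 937 and 766 CPM. Cckbr, the second cholecystokinin receptor, was detected in 5 of 18 Cckar neurons and 2 of 14 Cckar-negative neurons, and the ligand gene Cck had no count in any of the 32.

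Most of the 32 gene lists held no gene past 40 points, and with 1.02% of all genes past that size nothing is read from it. Npy2r was detected in 10 of 18 Cckar neurons and 7 of 14 Cckar-negative neurons, with medians of 11.6 and 12.2 CPM. Gfra2 was detected in 13 of 18 and 11 of 14, and Ret, the shared receptor of the GDNF family, in all neurons. Axon guidance genes had 5 of 31 members higher by the ratio of medians and none lower, against 2.51% and 1.08% of all genes. Of these, Epha5, an ephrin receptor gene named after its values were seen, had a median of 93.4 CPM in Cckar neurons and 27.5 CPM in Cckar-negative neurons. Lpar1, a lysophosphatidic acid receptor gene also named after its values were seen, was detected in 13 of 18 Cckar neurons and 5 of 14 Cckar-negative neurons, with medians of 33.2 and 2.11 CPM. Among 8 TRP channel genes, Trpv1 alone was past the ratio of medians, on the lower side, where 1.08% of all genes were. It was detected in 5 of 18 Cckar neurons and 7 of 14 Cckar-negative neurons. The heat shock genes Hspa1a and Hspa1b, whose near-identical sequences make their separate counts uncertain, had medians of 37.3 and 61.7 CPM in Cckar neurons and 309 and 444 CPM in Cckar-negative neurons.

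Cckar neurons were not uniform among themselves. All 18 had Slc24a2 and Scn8a, 16 had Cntnap1, 15 had P2rx2, 14 had Tac1, 13 had Gfra2, 11 each had Piezo2, P2rx3 and Prrxl1, 10 had Npy2r, 7 had Calca, 5 had Trpv1 and 4 had Trpa1. P2rx3 overlaps exons of Ssrp1 on the other strand, which makes its count uncertain. Piezo2 and Tac1 were detected together in 10 Cckar neurons, Piezo2 alone in 1, Tac1 alone in 4 and neither in 3. Of the 5 Cckar neurons with Trpv1, 3 also had Trpa1, 3 had Piezo2 and 4 had Calca. The Cckar level overlapped between Cckar neurons with and without each of these genes, except Slc24a2 and Scn8a, which no Cckar neuron lacked. The median Cckar level was 70.7 CPM in the 11 Cckar neurons with Piezo2 and 93.7 CPM in the 7 without. It was 78.7 CPM in the 14 with Tac1 and 115 CPM in the 4 without.

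Among the 10 genes whose levels ranked most like Cckar over the 32 neurons, the first were Spata13 (Spearman's rho 0.66), Cul3 (0.63), Tacr3 (0.60) and Cbfa2t3 (0.60), followed by Gtf2a1, Lpgat1, Lbh, Fosl1 and Klhdc10 (0.57). The 10 were the highest of 10508 genes over neurons that were grouped by Cckar, and the values of a neuron share its library depth, so the values are a description. Spata13 was detected in every neuron, at 27.5 to 306 CPM in Cckar neurons (median 86.9 CPM) and 13.2 to 160 CPM in Cckar-negative neurons (median 38.9 CPM). Tacr3, the neurokinin 3 receptor gene, was detected in 8 of 18 Cckar neurons and 2 of 14 Cckar-negative neurons.

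The same genes were then looked at in neurons that the rule did not use. Of 33 neurons with 5000000 or more counts, fewer than 5000 detected genes and Prdm12 below 10 CPM (at most 9.13 CPM), Cckar was at 10 CPM or more in 12 and below in 21. Neurons with and without Cckar numbered 3 and 2 in block 1, 6 and 1 in block 2, and 3 and 18 in block 3, and the part of block here was not tested. Of the 82 genes of higher share, 59 (71.95%) also had a higher share in these 12 than in these 21, while 64.3% of all 10508 genes did. Of the 25 genes of lower share, 7 (28%) had a lower share there, while 29.2% of all genes did. Both percentages were thus near those of all genes, and 1 of the 82, Cit, was past 40 points there, detected in 6 of 12 and 0 of 21. In that set 272 genes (2.59%) were past 40 points on the higher side and 6 (0.0571%) on the lower side.

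Among single genes, Scn8a was detected in 7 of the 12 neurons with Cckar and 1 of the 21 without, and Tac1 in 11 of 12 and 8 of 21. Nefh had a median of 896 CPM in the 12 and 78.5 CPM in the 21. Slc24a2 was detected in 3 of 12 and 3 of 21, and Piezo2 in 6 of 12 and 7 of 21. Htr3a went the other way from the 32 neurons compared, since it was detected in 10 of the 12 neurons with Cckar and 8 of the 21 without, with medians of 168 and 4.25 CPM. Maob was detected in 4 of 12 and 1 of 21. Detected genes numbered 2231 to 4500 in the 12 neurons with Cckar (median 3406) and 841 to 4870 in the 21 without (median 2248). Of all 10508 genes, 64.3% had a higher share in the 12, so a higher share of a single gene there is not particular to it. The low number of detected genes in these neurons also lowers the detection of other genes. The part of that number, and of its difference between the 12 and the 21, in these values was not tested.

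**Figure D5:**
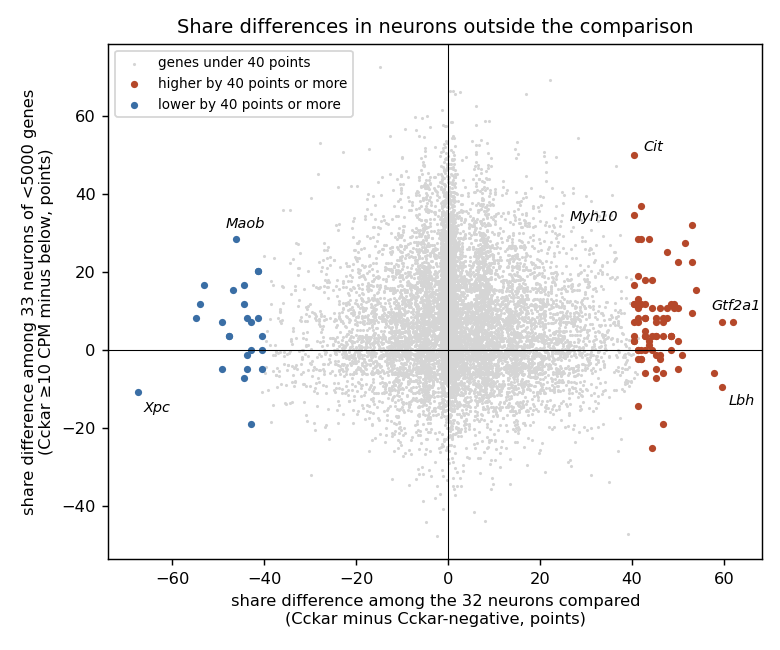
Difference in share (Cckar minus Cckar-negative, points) among the 32 neurons compared (x axis) and among the 33 neurons of fewer than 5000 detected genes (y axis; 12 with Cckar at 10 CPM or more minus 21 below), 1 point per gene. Of the 82 genes at the right 59 lie above 0 on the y axis, and of the 25 genes at the left 7 lie below 0.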

How the data were processed

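The authors deposited raw read counts, whole numbers per gene and neuron with no normalization. Reads were assigned to genes with featureCounts, per the submitters' processing notes; the sources used here do not give its version, the aligner, the genome build, the annotation or the strand setting. Nothing mentions molecular identifiers, so copies made by amplification are counted too and depth overstates the number of molecules.

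Of 50686 gene identifiers, 50376 matched symbols of GENCODE M21 (GRCm38), from which coordinates are taken; the other 310 held at most 0.253% of any neuron's counts. CPM values were computed from the deposited counts and each neuron's total. Each neuron is a sample and no animal is named, so each group counts as 1 sample and no p-value was computed. Shares have exact (Clopper-Pearson) 95% intervals, and the limit for a share of 0 is 3 neurons of the total. No neuron duplicated another: the closest pair correlated at 0.959 on log2(CPM + 1).

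The groups, the 32 gene lists and the rules of size were chosen with earlier results of these data known. Named genes are the whole lists on cholecystokinin signalling and ganglion markers, in each other list the 2 genes of highest share and up to 4 past 40 points, lists of up to 13 genes where useful, the 15 genes outside the lists with the largest difference in each direction, and the 10 with the highest Spearman's rho with Cckar. Genes named otherwise are marked, and some genes that the rule names are not reported here. Alternatives covered the detection limit, the limits on neurons and on Cckar, thinning, the blocks, and TMM scaling from edgeR 4.0.16 in R 4.3.3, with no edgeR test. The code of the comparison was run on simulated counts with large planted changes and no blocks or subsets of neurons. That run does not give the rate of false calls in these neurons. Analyses used Python 3.11.15, numpy 2.4.6, pandas 2.3.3, scipy 1.17.1 and matplotlib 3.10.9 with seed 1.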

Additional observations from a re-analysis of the deposited data

Results flagged for a closer look

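A signal of the gene that defines the groups was present in neurons outside the comparison. Among 33 neurons with 5000000 or more counts, fewer than 5000 detected genes and Prdm12 below 10 CPM, Cckar was at 10 CPM or more in 12. The highest of them had 2005 CPM, which is above the 289 CPM of the highest Cckar neuron compared. Cckar was at 10 CPM or more in 0 of 7 Prdm12 neurons, which allows a share of up to 42.9%.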

How the results depend on the processing

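The genes past 40 points depended on the settings. Of 36 genes past 40 points that were followed singly, 15 kept their direction in every setting and 0 stayed past 40 points in every setting. Detection at 5 CPM gave 74 genes higher and 24 lower in Cckar neurons, of which 27 and 6 were among the 82 and 25. Detection at 50 CPM gave 50 and 31, of which 2 and 2 were shared. A size of 30 points gave 380 and 152 genes and a size of 50 points 14 and 4. Cckar called at 1 CPM gave 76 and 94, at 50 CPM 31 and 39, and with only neurons under 1 CPM as negative 100 and 67. Limits of 4000, 6000 and 7000 detected genes gave 49 and 4, 116 and 91, and 206 and 117. Without the Prdm12 limit there were 51 and 24. TMM scaling gave 67 and 32, of which 51 and 18 were shared, and thinning to equal depth 80 and 25, of which 70 and 18 were shared.

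Without block 1 there were 287 genes higher and 114 lower, without block 2 73 and 55, and without block 3, which leaves 2 Cckar-negative neurons, 565 and 610. The share of Cckar neurons was then 84.6%. The next settings were chosen after seeing the data. Block 3 alone gave 213 and 309 genes, over the 9206 genes at 10 CPM in at least 5 of its own neurons. Over the 10508 genes of the main comparison it gave 239 and 309. Its share of Cckar neurons was 36.8%. Neurons with Ddx3y alone gave 164 and 250. Neurons with Htr3a below 10 CPM alone gave 604 and 40 over their own 9618 genes, and 604 and 43 over the 10508. The share of higher calls among all calls was 76.6% as reported, 57.03% without block 2, 40.8% within block 3 and 93.8% with Htr3a below 10 CPM. By the ratio of medians, 1 CPM added gave 1151 and 465 genes, 50 CPM added 34 and 19, and means of log2(CPM + 10) 99 and 34.

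Among the genes past 40 points that were followed singly, directions reversed as follows, in points. At 5 CPM Stk35 and Ttc27 were both at 0.794. At 50 CPM Lbh was at -1.59 and Rassf4 at -4.76. Without block 3 Cntnap1 was at -9.09, Cit at -9.09, Myh10 at -18.2, Rassf4 at -27.3, Dpyd at 18.2, and Maob, Efcab6, Lrrc75a and Ddx3y at 9.09. With Htr3a below 10 CPM Lrrc75a was at 7.14. Genes short of 40 points also turned without block 3: Piezo2, Sv2b and Ptgfr to -45.5, Ryr2 to -36.4, Prrxl1 and Cdh1 to -27.3, Tac1 to -18.2, Htr3a to 27.3, Htr3b to 18.2, and Trpv1 and Trpa1 to 36.4. The cause was not tested. No paired analysis was possible because the labels give no replicate numbers and no test was made. With 18 and 14 neurons, shares carry wide intervals, as for Piezo2, whose difference of 39.7 points has an interval of 0.876 to 67.02 points.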
